A study of Mus musculus with 30 samples.

Results

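Embryonic stem cells held by an inducible Nanog gene were compared before and 5 days after the inducer was taken away. The comparison was set by the labels alone: the 3 arrays of day 5 without doxycycline against the 3 arrays of day 0 with doxycycline, which are 6 of the 30 arrays of the series, across all genes. All groups came from 1 mouse embryonic stem cell clone, named NgR (Nanog rescue) in the labels. The clone descended from AINV15 cells that express the reverse tetracycline transactivator rtTA, and it was grown on primary mouse embryonic fibroblasts. At day 0 the medium held doxycycline at 1 ug/ml. At day 5 doxycycline had been absent for 5 days. Arrays of days 1 and 3 of withdrawal, and of a further 12 h at day 5 with or without a doxycycline pulse, are used here to place the genes of the main comparison. All 30 arrays entered 1 fit and share its estimate of the spread.

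No array came from cells kept on doxycycline for 5 days, so withdrawal and time in culture cannot be told apart. All arrays came from the NgR clone, so effects of doxycycline itself and of Nanog cannot be told apart either, in the withdrawal or in the pulse. The labels do not say whether the replicates were separate cultures, and the p-values then measure only the spread between these arrays. In bulk RNA, fewer cells of a type and less RNA per cell cannot be told apart either.

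Nanog is a homeobox transcription factor of the naive pluripotent state, the state of the early epiblast before implantation, and acts beside Pou5f1, Sox2, Esrrb and Klf4. Cells that leave this state pass through a formative stage marked by Otx2 and Fgf5 before they take on the fate of a germ layer. Under some conditions embryonic stem cells also turn on genes of the extraembryonic lineages, the trophoblast and the primitive endoderm, whose cells form epithelia with keratins, tight junctions and a basement membrane.

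Signal was read on Affymetrix Mouse Gene 1.0 ST arrays as log2 values, so a difference of 1 is a doubling. Each change below is the day 5 mean minus the day 0 mean with its standard error from the limma fit, n = 3 arrays per group. Of 23385 clusters (sets of probes for 1 transcription unit) with a gene symbol, 9945 were called at an adjusted p under 0.05, which is 42.5%. The called clusters were 5558 higher at day 5 (23.8%) and 4387 lower (18.8%), and these shares are the background for every gene list below. The lists were chosen with earlier results of these data known, and some hold genes of the largest changes. Their counts describe these arrays and are no separate support. In 5429 of the higher and 4231 of the lower clusters, the arrays of the groups did not overlap. The median change over all clusters was -0.01. Most called changes were small: 555 rose and 274 fell by at least 2-fold, 36 and 19 by at least 4-fold, and 4 and 1 by at least 8-fold. With every array set to a common median, the higher calls made up 42.05% of calls, against 55.89% on the deposited scale, so the balance of rises and falls depends on the scale. The root mean square difference was 0.145 to 0.189 between arrays of 1 group and 0.402 to 0.474 between arrays of the groups.

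Nanog, the gene under doxycycline control, was measured at 11.04, 11.05 and 11.01 at day 0 and at 10.06, 9.86 and 9.64 at day 5. All day 5 arrays were below all day 0 arrays, and the signal remained above the median of each array. Nanog fell by 1.18 ± 0.080 (adjusted p = 3.58e-12), a 2.27-fold change. In Pou5f1 and Sox2 the cells matched their label at day 0, at or above 12.33 and 12.04 in arrays whose medians were 7.354 to 7.366. Nanog was at or above 11.01, but doxycycline was present, so its level is no check of the label. The labels do not say which part of the Nanog transcript the probes read, so signal from the inducible copy and from the endogenous gene is not separated here.

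Each of the 20 largest rises was over 2.2 on the log2 scale. Krt7, a keratin of simple epithelia, was at 7.75, 7.67 and 7.73 at day 0 and at 11.06, 11.07 and 11.19 at day 5. Car4, a membrane-bound carbonic anhydrase, was at 8.02, 8.22 and 7.88 and then at 11.43, 11.42 and 11.51. Igf2, the imprinted fetal growth factor, was at 8.49, 8.33 and 8.48 and then at 11.57, 11.54 and 12.02. In each of these genes the groups were far apart, as the choice of the largest changes required. For Igf2, 1 day 5 array (replicate 3) stood above the others. Meiob, a single-stranded DNA binding protein of meiosis, had the largest change, from 3.81, 4.68 and 3.89 to 7.58, 7.50 and 7.64. Its day 0 values lay among the lowest signals of the arrays, where 1 array (replicate 2) was higher than the rest, and its standard error of 0.24 was the widest among the named genes. Changes of over 2.5 were also found for Krt18, App (the amyloid precursor protein), the pantetheinase Vnn1, the myelin protein Pmp22, the kinase Nrk, Nxf7, Greb1l and B2m. Slc40a1, the iron exporter ferroportin, rose by 2.23 ± 0.083, Podxl, a sialomucin of apical membranes, by 2.24 ± 0.089, and Prtg, an immunoglobulin-family receptor of the early embryo, by 2.22 ± 0.088. Adgrl2, an adhesion receptor, was read by 8 clusters, which all rose, by 0.93 to 2.39.

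Each of the 20 largest falls was over 1.9 on the log2 scale. Nr0b1 (DAX1), an orphan nuclear receptor that partners with Nanog and Pou5f1, was at 11.59, 11.64 and 11.51 at day 0 and at 9.13, 8.73 and 8.82 at day 5. Slc7a3, a cationic amino acid transporter, was at 11.19, 11.16 and 11.12 and then at 8.60, 8.68 and 8.65. The G protein subunit gene Gng3 was at 10.09, 10.00 and 10.06 and then at 7.52, 7.52 and 7.50. The genes were chosen for large changes with no overlap of these groups, so neither is a separate result. The spread within each group was a small part of the change. Trh, the precursor of thyrotropin-releasing hormone, fell from 11.40, 11.41 and 11.38 to 9.53, 9.13 and 9.34. Vwa3b had the largest fall in 1 cluster, 3.25 ± 0.15, but its 8 clusters ranged from -3.25 to -0.29, 7 of them called, and its brightest cluster fell by 1.05 ± 0.13. Other falls of over 1.9 were those of the small GTPase genes Eras and Mras, Khdc3, the proneural factor Neurod1, the neuronal filament Ina, Ccnd1, Calml4, Spink1, Tubb3, Pcolce2, Myc, Crmp1, the noncoding RNA Platr8, Nexmif and Hsd17b14.

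**Figure D1:**
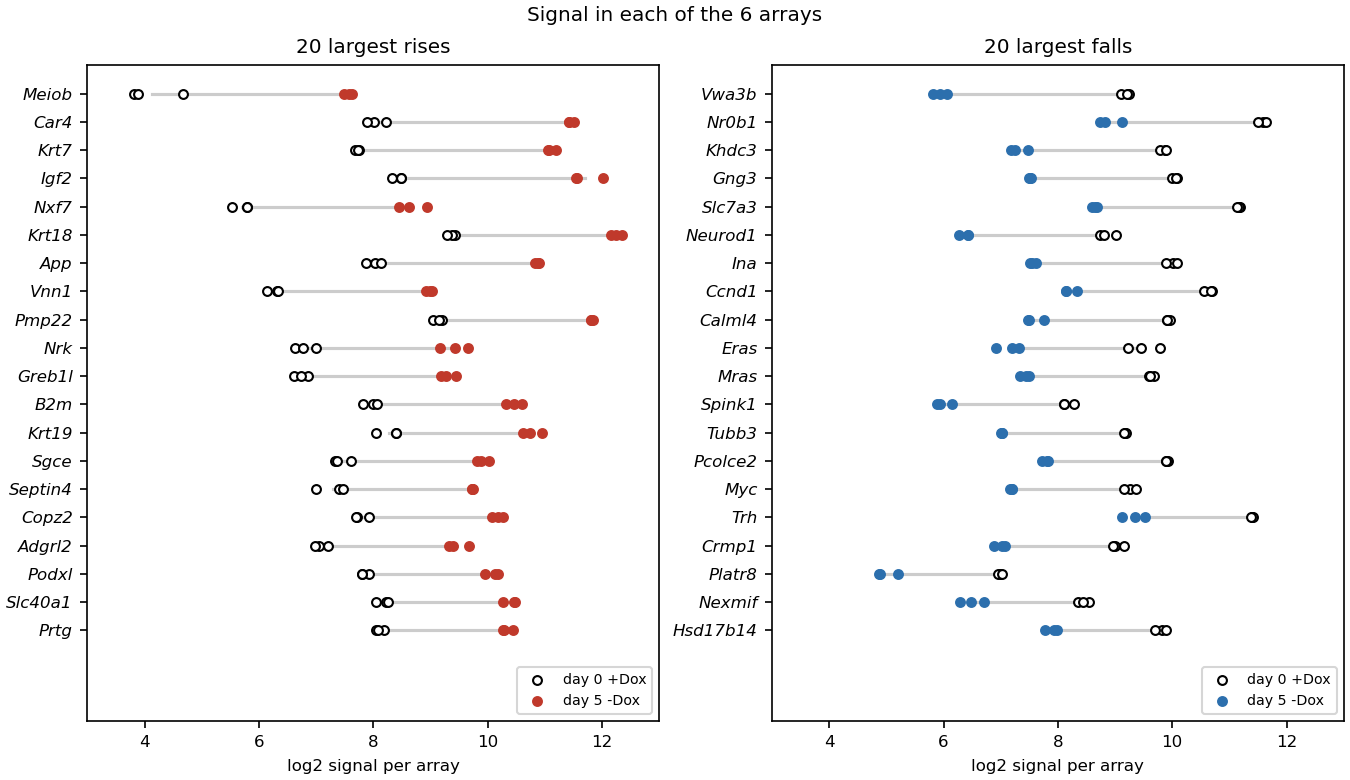
Log2 signal (horizontal axis) of each array for the 20 largest rises (left) and the 20 largest falls (right), with open points for the 3 day 0 arrays, filled points for the 3 day 5 arrays and a line between the group means. The groups are apart in all 40 genes, as the rule that chose them required. Meiob starts from 3.81 to 4.68, near the lower end of the axis.

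Naive pluripotency genes fell as a list but not as a whole. Of 25 measured members, 21 fell and 1 rose, with a median change of -0.96 against -0.01 for all clusters. Nanog, the gene under doxycycline control, is counted among the 21. After Nr0b1, Khdc3, Eras and Mras, the falls included Zfp42 (Rex1), at 11.66, 11.85 and 11.66 at day 0 and at 10.04, 9.80 and 9.92 at day 5, and Klf4, at -1.51 ± 0.093. Tfcp2l1 (0.16), Dppa5a (0.01) and Stat3 (-0.09) were not called. Dppa3 (Stella), a maternal factor that guards DNA methylation in the zygote, went the other way, from 8.37, 8.35 and 8.50 to 9.46, 9.08 and 9.02. Its groups did not overlap and it rose by 0.78 ± 0.14 (adjusted p = 5.80e-05).

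General pluripotency genes were divided. Of 19 measured, 11 fell, 2 rose and 6 were not called, with a median of -0.49. Pou5f1 (Oct4) fell by 1.29 ± 0.088, from 12.38, 12.34 and 12.33 to 11.17, 11.07 and 10.92, and Sox2 by 0.49 ± 0.080, from 12.09, 12.19 and 12.04 to 11.76, 11.68 and 11.42. Sall4 (-0.04), Lin28a (-0.07), Trim71 (-0.01) and Dnmt3l (0.03) were not called. The RNA-binding Lin28b rose by 0.70 and the epithelial adhesion gene Epcam by 0.95. Of 20 formative and primed genes, 12 fell and 3 rose, with a median of -0.38. Etv4 (-1.54), Zic2 (-1.40), Zic5 (-1.34) and Tcf15 (-1.27) fell the most, while Otx2 rose from 8.14, 8.36 and 8.01 to 9.57, 9.48 and 9.34. Fgf5 was at 0.07 and Pou3f1 at 0.06, both not called.

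The octamer, the motif bound by Pou5f1 and other POU factors (ATGCAAAT on either strand), was searched in the 250 bases before the annotated start of each gene in RefSeq sequences of build GRCm38.p6. It was found in 1 of 16 naive genes with such a sequence (6.25%), in 0 of 15 general and in 1 of 12 formative genes (8.33%), against 1.81% of the 27025 genes with a promoter. The naive gene was Zfp42, shown because it fell by 1.80 ± 0.097 and carries the match 186 bases before its start, at chr8:43307010-43307259 on the minus strand, with the octamer in capitals.
Zfp42: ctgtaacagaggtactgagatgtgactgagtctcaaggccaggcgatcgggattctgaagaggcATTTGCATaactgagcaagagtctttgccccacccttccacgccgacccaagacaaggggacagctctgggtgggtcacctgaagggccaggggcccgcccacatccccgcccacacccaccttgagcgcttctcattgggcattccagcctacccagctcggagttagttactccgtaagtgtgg
The formative gene was Pim2, a kinase, which fell by 0.84 and had 2 matches. A match describes the letters of the window only.

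**Figure D2:**
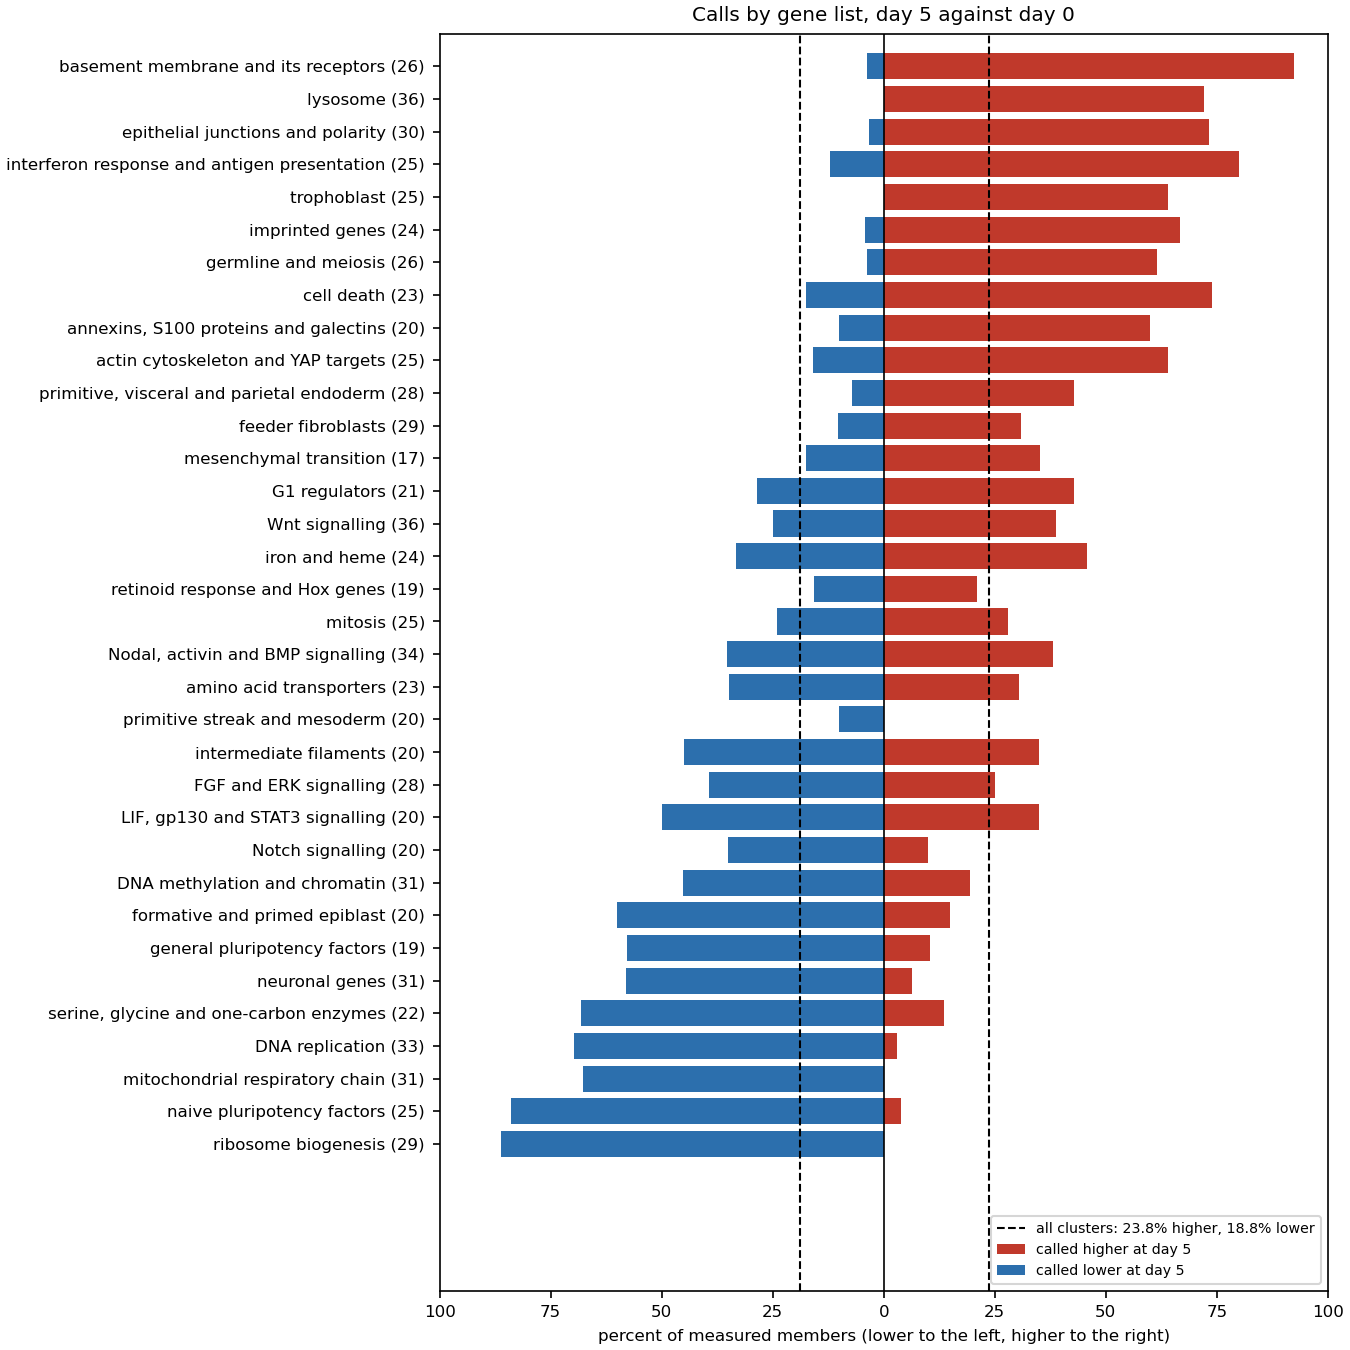
Share of the measured members (number in brackets) of each gene list called higher (red, to the right) or lower (blue, to the left) at day 5, with dashed lines at the background over all clusters, 23.8% and 18.8%. Basement membrane genes are at the top, with 92.3% higher, and ribosome biogenesis genes at the bottom, with 86.2% lower.

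Filament genes changed in both directions. Keratins of simple epithelia rose: Krt8 was at 10.14, 10.03 and 10.08 at day 0 and at 12.36, 12.27 and 11.95 at day 5, Krt18, with which it pairs, at 9.42, 9.37 and 9.30 and then at 12.36, 12.17 and 12.24, and Krt20 rose by 1.02. Krt5 (0.00) and Krt14 (0.01), the pair of stratified epithelia, were not called, and Krt17 (-0.85) and Krt42 (-1.42) fell. The neurofilament Nefl (-1.53), nestin (Nes, -0.44) and vimentin (Vim, -0.59) also fell, while desmin (Des) rose by 1.20 and lamin A (Lmna) by 0.42. Of the 20 filament genes, 7 rose and 9 fell, and under both rescalings the median moved from 0.007 to below 0.

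Cell junction genes rose. Of 30 measured genes of epithelial junctions and polarity, 22 rose and 1 fell, with a median of 0.63. Among desmosome genes, the cadherin Dsc2 was at 6.62, 6.95 and 7.01 at day 0 and at 8.83, 8.87 and 8.81 at day 5, and the linker desmoplakin (Dsp) at 8.02, 8.23 and 8.08 and then at 9.56, 9.55 and 9.63. Neither gene had overlapping groups. The tight junction claudins Cldn7 (1.49), Cldn6 (1.41), Cldn4 (0.88) and Cldn3 (0.71) rose, as did occludin (Ocln, 0.96) and the scaffold Tjp1 (0.84). E-cadherin (Cdh1), which embryonic stem cells already express, rose by 0.38 ± 0.072. The connexin Gjb5 fell by 0.30, a call lost without replicate 3 of day 5. The transcription factors Grhl2 (0.18) and Ovol2 (0.03), which promote epithelial genes, were not called.

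Genes of the basement membrane, the sheet of laminin and collagen IV under epithelia, rose nearly throughout. Of 26 measured, 24 rose and 1 fell, with a median of 0.84. The collagen IV chains Col4a1 and Col4a2 rose by 0.80 ± 0.075 and 0.94 ± 0.092, and the enzymes that modify collagen chains by as much or more, with P4ha2 at 1.33 ± 0.098 and P4ha1 at 1.22 ± 0.087. Among the laminins, Lamb2 rose by 0.98, Lama5 by 0.86, Lamb1 by 0.75 and Lamc1 by 0.41, whereas Lama1 fell by 0.31 ± 0.097, from 8.99, 8.98 and 8.85 to 8.66, 8.62 and 8.60. The receptors rose with them, with the integrin Itgav at 1.20 ± 0.069, Itga3 at 0.91, Itgb5 at 0.90, Itgb1 at 0.81 and dystroglycan (Dag1) at 0.96. Itgb4, the integrin of hemidesmosomes, was not called at -0.07.

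Feeder fibroblast markers were read beside these matrix genes. Of 29 measured, 9 rose and 3 fell (41.4%, near the share of all clusters), with a median of 0.06, and their summed linear signal was 7181 to 7403 over the day 0 arrays and 8573 to 9291 over the day 5 arrays. Col1a2 (1.00 ± 0.063), Mmp2 (1.00), Thbs1 (0.99) and Pdgfrb (0.78) rose, Timp1 (-1.10), Thy1 (-0.49) and Ddr2 (-0.37) fell, and Dcn (-0.02), Lum (-0.14), Twist1 (0.04) and Prrx1 (0.10) were not called. Centring gave 9 rises and 6 falls, and leaving out replicate 2 of day 5 gave 5 falls. The labels do not say whether feeders were removed before harvest, and their part in the matrix result was not tested. Of 17 genes of mesenchymal transition, 6 rose and 3 fell, and the regulators Snai1 (0.10), Snai2 (0.10), Zeb1 (0.05) and Zeb2 (0.04) were not called.

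Among 25 actin cytoskeleton genes and targets of the coactivator YAP, 16 rose and 4 fell, with a median of 0.33. The YAP targets Amotl2 (1.30), Ccn1 (1.17), Ccn2 (0.63) and Ankrd1 (0.39) rose, as did tropomyosin (Tpm1, 1.20), Cnn2 (0.99) and nonmuscle myosin (Myh9, 0.85). The monomer-binding thymosins Tmsb4x (-1.28) and Tmsb10 (-0.44) fell. Annexins, proteins that bind membranes in the presence of calcium, rose in 8 of 9 measured cases, against 23.8% of all clusters. Anxa1 (1.86), Anxa2 (1.71) and Anxa3 (1.54) led them, but annexins were not a gene list of their own. In the wider list with S100 proteins and galectins, 12 of 20 rose and 2 fell, with Lgals3 (galectin 3) at -0.97. Quantile normalization gave 13 and 5.

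Trophoblast genes rose in part. Of 25 measured, 16 rose and none fell in limma (1 fell at an unadjusted p under 0.05, and 1 was called without replicate 3 of day 5), with a median of 0.52. Gata3, a transcription factor of the trophectoderm, was at 6.58 in all 3 arrays of day 0 and at 8.04, 7.96 and 8.01 at day 5. The imprinted placental gene Peg10 was at 10.49, 10.27 and 10.28 and then at 12.02, 12.00 and 12.36, and Plac1 at 6.61, 6.52 and 6.47 and then at 8.10, 7.49 and 8.24. The groups did not overlap, and Plac1 was lower in 1 day 5 array (replicate 2) than in the others. Cdx2 rose by 0.37 and Ascl2 by 0.52, whereas Elf5 (0.04), Eomes (0.24), Hand1 (-0.07), Tfap2c (-0.16), Tead4 (0.07) and the spongiotrophoblast gene Tpbpa (0.20) were not called. Rhox6 (0.99) and Rhox9 (1.04) rose, but they are close relatives and shared signal was not tested.

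Of 28 genes of the primitive, visceral and parietal endoderm, 12 rose and 2 fell, with a median of 0.10, and centring gave 10 and 7. The rises were led by the proteoglycan Srgn (1.96), the endocytic adaptor Dab2 (1.70, with a further cluster not called at -0.17), the endocytic receptor Lrp2 (1.64) and tissue factor (F3, 1.32). Gata6 rose by 0.67 ± 0.087. Other defining factors were not called, with Gata4 at 0.12, Sox17 at -0.17, Sox7 at -0.23 and Foxa2 at -0.13, nor were the secreted products Afp (0.09), Ttr (-0.10) and Apob (-0.14). Of 20 genes of the primitive streak and mesoderm, none rose in limma and Wnt3a (-0.39) and Etv2 (-0.25) fell, against 1 and 4 at an unadjusted p under 0.05. Leaving out single arrays gave 0 to 2 falls and centring gave 7. Mixl1, Gsc, Mesp1 and Eomes were not called.

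Imprinted genes, which are expressed from 1 parental copy, were among the largest rises. Of 24 measured, 16 rose and 1 fell, with a median of 0.56. Beside Igf2 and Peg10, Sgce, the neighbour of Peg10, was at 7.33, 7.61 and 7.36 at day 0 and at 9.89, 10.03 and 9.82 at day 5. The zinc finger gene Peg3 was at 8.61, 8.62 and 8.33 and then at 10.21, 10.09 and 10.21, and its neighbours Zim1 and Usp29 rose by 1.66 and 0.71. Noncoding RNAs of the Dlk1 region rose too, with Meg3 at 1.22 and Rian at 1.19, while the protein gene Dlk1 rose by 0.72. Both paternally expressed genes, such as Igf2 and Peg3, and maternally expressed ones, such as Igf2r (1.27), Cdkn1c (1.04) and Meg3, were higher. Phlda2, a maternally expressed gene that limits placental growth, fell by 0.87 ± 0.17, from 10.99, 11.21 and 11.13 to 10.49, 10.04 and 10.19. Plagl1 (-0.06), Mest (0.10) and Nnat (-0.16) were not called.

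Germline and meiosis genes behaved alike. Of 26 measured, 16 rose and 1 fell, with a median of 0.55. Beside Meiob, the rises included the helicase Mov10l1 of the piRNA pathway (1.34), the meiotic cohesins Stag3 (1.27) and Smc1b (1.25), the piRNA factor Tdrkh (1.09) and Stra8 (1.09), which starts meiosis. Stra8 was at 6.65, 6.73 and 6.42 and then at 7.92, 7.85 and 7.29, lowest in replicate 3 of day 5. Sycp1 (0.04), Sycp3 (-0.04) and Hormad1 (0.17), whose proteins are parts of meiotic chromosomes, were not called. Rpl10l, a testis copy of a ribosomal protein gene, fell by 1.06.

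Genes of antigen presentation rose. B2m, the light chain of MHC class I, was at 8.0, 8.06 and 7.83 at day 0 and at 10.47, 10.33 and 10.61 at day 5. Tap1, one chain of the transporter that brings peptides to class I, was at 7.63, 7.75 and 7.61 and then at 8.83, 8.98 and 8.75. Of 25 measured genes of the interferon response and antigen presentation, 20 rose and 3 fell, with a median of 0.46. The loading factor Tapbp rose by 0.91, the immunoproteasome subunit Psmb8 by 0.72, Oasl2 by 0.92 and Irgm1 by 0.96. The 3 falls were all of the IFITM family of membrane proteins, Ifitm2 (-0.94), Ifitm3 (-0.59) and Ifitm1 (-0.47). With each array centred, 15 rose and 4 fell.

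Genes of the lysosome, the organelle that digests proteins, lipids and sugars, rose as a list. Of 36 measured, 26 rose and none fell in limma (27 and 0 at an unadjusted p under 0.05), with a median of 0.57. Gm2a, a cofactor in the breakdown of gangliosides, was at 8.88, 9.04 and 8.92 at day 0 and at 10.52, 10.51 and 10.50 at day 5. The membrane protein Lamp2 was at 8.80, 8.87 and 8.66 and then at 10.18, 10.20 and 10.22. Lipa, the acid lipase, was at 7.50, 7.58 and 7.36 and then at 8.80, 8.83 and 9.01. The day 5 arrays were all higher, by more than the range within either group. Proteases rose with them, with Lgmn at 1.16, Ctsb at 1.12, Ctsc at 1.11 and Ctsl at 0.87, and so did the hexosaminidase subunit Hexa (1.08) and the saposin precursor Psap (0.96). Subunits of the proton pump were less uniform: the accessory subunit Atp6ap1 rose by 0.53, and Atp6v0d1 (0.13) and Atp6v1h (-0.03) were not called. Lamp1 (0.13) was not called either.

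Lysosomal genes often carry the CLEAR motif, the site of the factor TFEB, here searched as TCACGTGA, which reads the same on both strands. Of 31 lysosomal genes with a RefSeq promoter, 4 held it in the 250 bases before the start (12.9%), against 0.907% of the 27025 promoters. They were Ctsd, Ctsa, Mcoln1 and Gla. The cathepsins D and A are shown because they had the largest rises of the 4. The motif lay 99 and 13 bases before their starts, and 46 bases before that of Mcoln1. Ctsd lies at chr7:142387828-142388077 on the minus strand and Ctsa at chr2:164833523-164833772 on the plus strand, in GRCm38.p6, with the motif in capitals.
Ctsd: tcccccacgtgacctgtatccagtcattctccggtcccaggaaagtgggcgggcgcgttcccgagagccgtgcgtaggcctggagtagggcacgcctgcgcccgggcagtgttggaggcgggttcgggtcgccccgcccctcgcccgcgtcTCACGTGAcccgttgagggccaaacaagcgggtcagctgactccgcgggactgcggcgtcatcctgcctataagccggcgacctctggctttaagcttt
Ctsa: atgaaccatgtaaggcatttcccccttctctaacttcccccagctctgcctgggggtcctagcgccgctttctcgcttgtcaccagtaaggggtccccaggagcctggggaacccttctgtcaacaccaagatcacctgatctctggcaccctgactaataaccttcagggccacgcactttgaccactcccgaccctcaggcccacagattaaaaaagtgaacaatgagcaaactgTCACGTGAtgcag
Ctsd was at 10.85, 10.94 and 10.87 at day 0 and at 11.44, 11.57 and 11.52 at day 5, a rise of 0.62 ± 0.070. Ctsa was at 9.31, 9.39 and 9.33 and then at 9.92, 9.96 and 9.94, a rise of 0.60 ± 0.062. Mcoln1, a calcium channel of the organelle, rose by 0.20, a call lost with centring, and Gla, which held 2 matches, was not called at -0.10. Gm2a, Lamp2 and Lipa, which rose the most, were not among the 4.

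**Figure D3:**
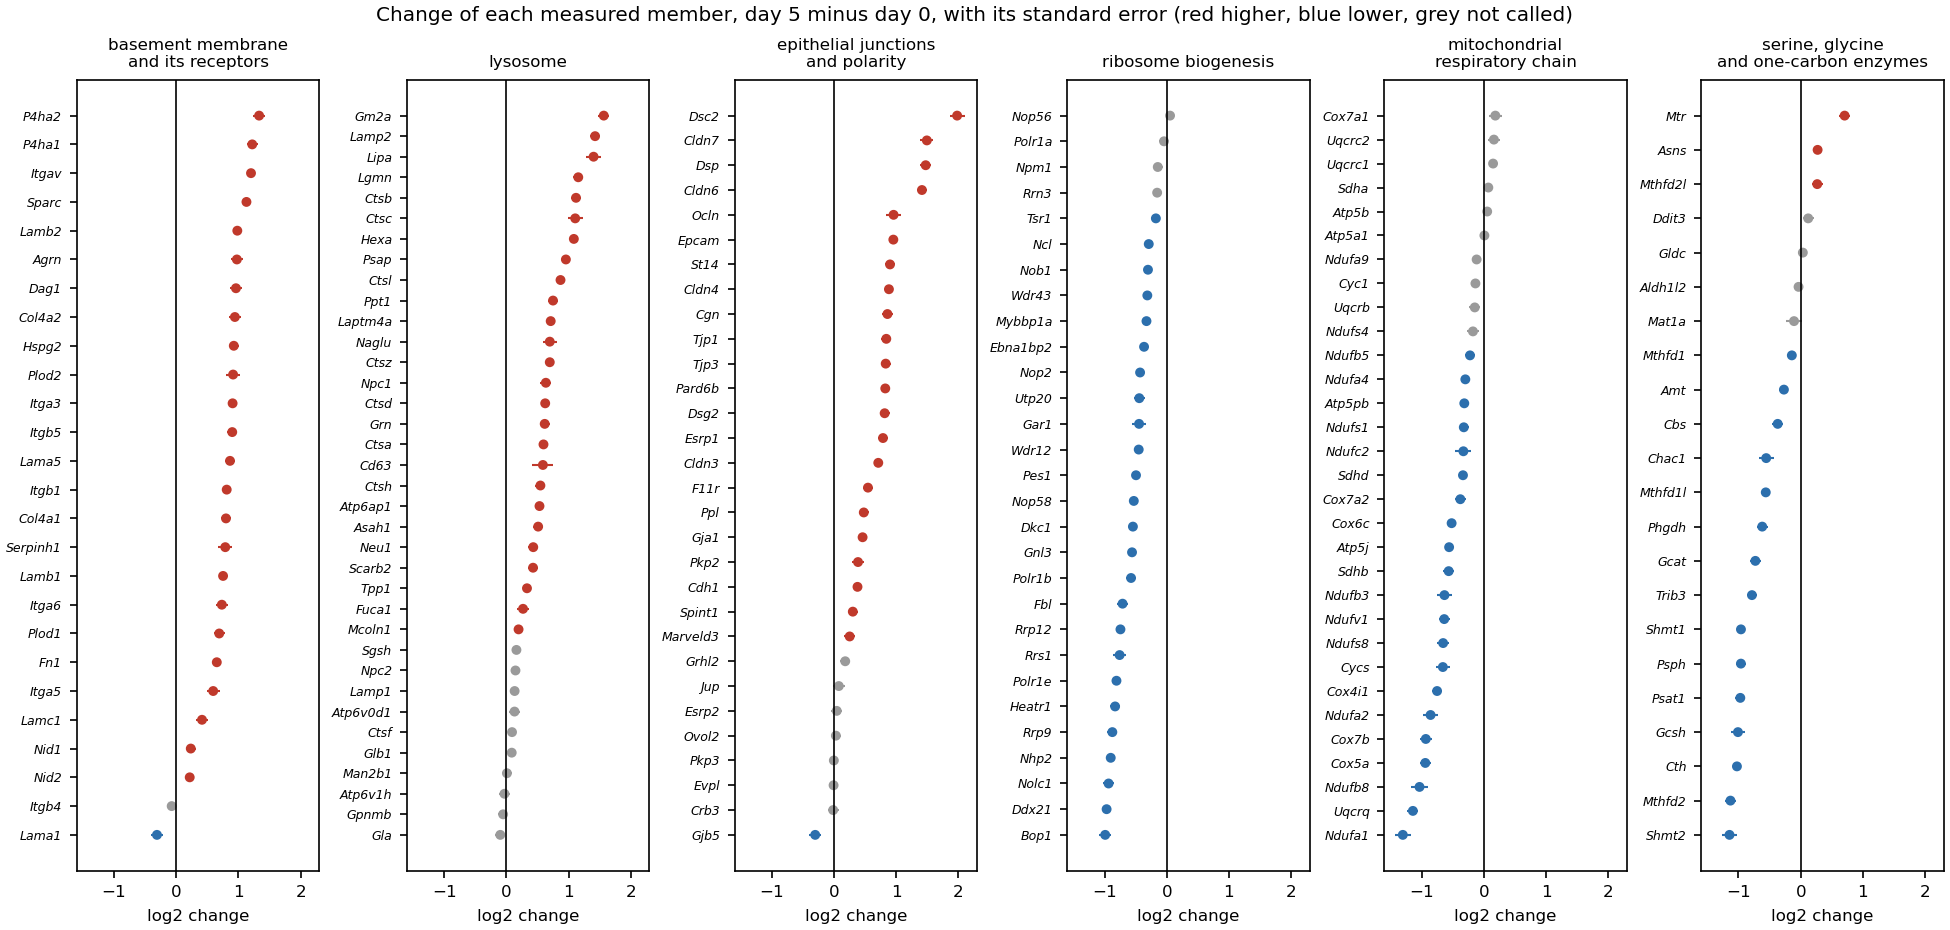
Log2 change (day 5 minus day 0, horizontal axis) of each measured member of 6 gene lists, ordered by size, with bars of 1 standard error and colour for the call. In the 3 lists on the left most members lie above 0, with 24 of 26 basement membrane genes called higher. In the 3 on the right most lie below 0, with 25 of 29 ribosome biogenesis genes called lower.

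Several lists of growth and energy metabolism held more falls than rises. Of 29 measured ribosome biogenesis genes, 25 fell and none rose in limma (26 and 0 at an unadjusted p under 0.05), with a median of -0.49. Bop1, which processes large-subunit rRNA, was at 10.05, 9.94 and 9.82 at day 0 and at 8.80, 8.99 and 9.05 at day 5, and the nucleolar helicase Ddx21 at 11.45, 11.40 and 11.29 and then at 10.48, 10.44 and 10.31. The groups were apart in both. Nolc1 (-0.93), Nhp2 (-0.90) and the polymerase I subunit Polr1e (-0.81) fell by similar amounts, nucleolin (Ncl) by 0.29, and Npm1 (-0.14), Nop56 (0.05) and Polr1a (-0.04) were not called. Of 31 genes of the mitochondrial respiratory chain, 21 fell and none rose in limma, with a median of -0.33. Of these genes, 1 rose at an unadjusted p under 0.05, 1 without replicate 3 of day 5 and 3 with quantile normalization. The largest falls were Ndufa1 of complex I at 10.36, 10.50 and 10.64 and then at 9.30, 9.25 and 9.04, Uqcrq of complex III at -1.14 and Cox5a of complex IV at -0.94. Sdha (0.07), Uqcrc1 (0.15), Uqcrc2 (0.16), Atp5a1 (0.01) and Atp5b (0.05) were not called. In an exploratory look without values given here, changes on these arrays also moved with gene length, many short genes being lower. No gene lengths of the arrays' annotation were at hand, so the size of this trend was not measured. The part of gene length in these and the other list results was not tested.

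Replication genes fell while mitotic genes were mixed. Of 33 DNA replication genes, 23 fell and 1 rose, with a median of -0.37. The polymerase alpha subunit Pola1 fell by 1.09, the ribonucleotide reductase subunit Rrm2 by 1.02, thymidylate synthase (Tyms) by 0.95 and the sliding clamp Pcna by 0.72. Pcna was at 12.48, 12.56 and 12.42 and then at 11.90, 11.64 and 11.75. The helicase subunits Mcm2 to Mcm6 fell by 0.40 to 0.71 and Mcm7 (-0.02) was not called. The 1 rise, Cdc6 at 0.20, was lost in leave-one-out fits without replicates 1 or 3 of day 0 or any replicate of day 5. The call was also lost with the replicate block, with centring, in the fit of the 6 arrays alone, with each array's interquartile range in the fit and with clusters without a symbol included. Of 25 mitosis genes, 7 rose and 6 fell, from Prc1 (0.49) and Cenpf (0.45) to Cdc20 (-0.61) and Birc5 (-0.66). Both shares were only a little above those of all clusters, 23.8% higher and 18.8% lower. The mixed calls therefore did not set this list apart from the background. The median of this list was -0.03, and 0.04 with quantile normalization. Centring gave 5 rises and 10 falls, and leaving out replicate 3 of day 0 or replicate 3 of day 5 left 3 and 2 falls.

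Regulators of the G1 phase moved in both directions. The cyclin Ccnd1 was at 10.56, 10.70 and 10.68 at day 0 and at 8.15, 8.34 and 8.14 at day 5, and Myc at 9.26, 9.37 and 9.15 and then at 7.20, 7.17 and 7.19. Mycn (-1.31), Ccne1 (-1.11) and Cdk2 (-0.60), which also drive entry into S phase, fell. The retinoblastoma gene Rb1 was at 7.80, 8.18 and 7.83 and then at 8.71, 8.78 and 8.76, and the inhibitors Cdkn1c (1.04), Cdkn2b (0.58) and Cdkn2c (0.43) rose. In all, 9 of 21 rose and 6 fell, against 6 and 8 with centring. Of 23 cell death genes, 17 rose and 4 fell, with a median of 0.33. Apaf1 (1.04), the caspase Casp6 (0.86) and the death receptor Tnfrsf10b (0.93) rose, but so did the survival gene Bcl2l1 (0.74), and the pro-death genes Bok (-0.71), Bid (-0.37), Bak1 (-0.35) and Bbc3 (-0.32) fell.

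On the list of serine, glycine and one-carbon enzymes, 15 of 22 measured genes fell and 3 rose, with a median of -0.56. The list also named Asns, Chac1, Trib3 and Ddit3, which are not enzymes of these pathways. In the mitochondrion, Shmt2 fell from 9.97, 10.07 and 9.99 to 8.97, 8.76 and 8.88 and Mthfd2 from 10.28, 10.25 and 10.15 to 9.16, 9.19 and 8.94. Serine synthesis fell with them, with Psat1 at -0.97, Psph at -0.96 and Phgdh at -0.62. Methionine synthase (Mtr) rose by 0.71 ± 0.090 and asparagine synthetase (Asns) by 0.27 ± 0.059, and the glycine decarboxylase Gldc was not called at 0.03. Mthfd1 was called at -0.14 as deposited and was at 0.015 with quantile normalization.

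Amino acid transporters were split, with 7 of 23 rising and 8 falling. Slc7a7, the light chain of a transporter of cationic amino acids, was at 9.60, 9.57 and 9.55 at day 0 and at 7.82, 7.80 and 7.97 at day 5, so that both it and Slc7a3 fell. Slc7a5 fell by 0.64 and Slc1a5 by 0.59, and Slc7a8 (0.85), Slc38a4 (0.50) and Slc1a1 (0.50) rose. The core of the amino acid response element, at which the stress factor ATF4 binds, was searched as TGATGNAA on either strand. It stood in the promoter of 2 of 17 transporters (11.8%) and 2 of 19 genes of the one-carbon list (10.5%), against 3.91% of all. The 2 of that list were Chac1 and Asns, which are not one-carbon enzymes. Slc7a7 is shown because it fell the most of the 4. Its window at chr14:54417703-54417952 on the minus strand of GRCm38.p6 holds the core 243 bases before the start, in capitals.
Slc7a7: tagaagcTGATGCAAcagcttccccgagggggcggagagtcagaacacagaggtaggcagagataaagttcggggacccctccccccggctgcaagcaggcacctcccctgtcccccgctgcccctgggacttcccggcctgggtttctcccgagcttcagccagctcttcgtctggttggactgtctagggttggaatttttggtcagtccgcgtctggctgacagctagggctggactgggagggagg
The others moved differently: Chac1 fell by 0.55, Asns rose by 0.27 and Slc7a11 was not called at -0.17. A second annotated start of Slc7a7 also had a match.

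Iron and heme genes gave 11 rises and 8 falls of 24. Slc40a1 was at 8.22, 8.25 and 8.04 at day 0 and at 10.48, 10.26 and 10.46 at day 5. The metal importer Slc39a8 rose by 1.29 and the biliverdin reductase Blvrb by 1.04, while heme oxygenase (Hmox1) fell by 0.78 and the importer Slc39a14 by 0.75. The transferrin receptor Tfrc (-0.19) and ferritin light chain Ftl1 (0.07) were not called. The ferritin heavy chain Fth1 was called at -0.15 and was at 0.0038 with quantile normalization. The split of this list depends on single arrays: 6 rose without replicate 3 of day 0 or replicate 1 of day 5, and 5 fell without replicate 2 of day 0 or replicate 3 of day 5. With centring 6 rose and 9 fell.

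Neuronal genes were lower at day 5. Of 31 measured, 18 fell and 2 rose, with a median of -0.28. Tubb3, a tubulin of neurons, was at 9.17, 9.19 and 9.15 at day 0 and at 7.00, 7.02 and 7.02 at day 5, and Neurod1 at 8.74, 9.02 and 8.81 and then at 6.43, 6.28 and 6.44. Uchl1 (-1.48), Stmn2 (-1.42), Dpysl3 (-1.22) and Ncam1 (-1.04) also fell. The 2 rises, Bex1 (0.26) and Rab3a (0.22), were not called with centring, and leaving out replicate 1 of day 0 or replicate 2 of day 5 left 1 of them. The neuronal migration gene Dcx (-0.05) and the synaptic gene Snap25 (-0.17) were not called.

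Each signalling list held both rises and falls. In the FGF and ERK list, 11 of 28 fell and 7 rose. The falls included the ligand Fgf4 (-0.91), the target transcription factors Etv4 (-1.54) and Etv5 (-1.14) and the feedback inhibitors Spry4 (-1.42) and Dusp6 (-0.54), while the receptors Fgfr2 (1.05) and Fgfr1 (0.37) and the phosphatase Dusp5 (0.77) rose. In the Nodal, activin and BMP list, 13 of 34 rose and 12 fell. The Nodal inhibitors Lefty1 (-1.31) and Lefty2 (-1.29), the coreceptor Tdgf1 (-0.73) and the activin subunit Inhbb (-1.54) fell. Inhbb was at 8.65, 8.64 and 8.63 at day 0 and at 7.04, 7.14 and 7.11 at day 5. The transducer Smad3 (0.87), the BMP receptors Bmpr2 (1.08) and Bmpr1a (0.76) and the ligands Bmp7 (0.79) and Bmp2 (0.75) rose. Of the targets of BMP signalling, Id2 rose by 1.35, Id3 fell by 0.76 and Id1 (0.12) was not called.

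Of 36 Wnt genes, 14 rose and 9 fell, and centring gave 11 and 11. Wls, the carrier that brings Wnt proteins to the cell surface, was at 7.60, 7.72 and 7.61 at day 0 and at 9.60, 9.42 and 9.50 at day 5, while Porcn, the enzyme that acylates them, fell by 0.79 ± 0.059. Among the receptors Fzd7 (1.11) and Fzd2 (0.74) rose and Fzd5 (-0.85) fell, and among the secreted inhibitors Dkk1 (0.59) rose and Sfrp1 (-0.64) fell. Axin2, a common target, was at 0.00 and not called. In the Notch list 2 receptors rose, Notch2 (0.85) and Notch3 (0.74), and 7 of 20 genes fell, among them Dll3 (-0.71) and the target Hes5 (-0.40). The falls numbered 4 without replicate 1 or replicate 2 of day 0 or replicate 3 of day 5.

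The signal of LIF, the cytokine that holds mouse cells in the naive state, runs from Lifr and the coreceptor Il6st through Jak kinases to Stat3. Lifr was at 9.56, 9.49 and 9.52 at day 0 and at 8.64, 8.62 and 8.65 at day 5, whereas Il6st rose by 0.47, Jak1 by 0.66 and Jak2 by 1.63 ± 0.14. Jak2 was at 7.07, 7.64 and 7.02 and then at 8.74, 8.96 and 8.92, with 1 day 0 array (replicate 2) above the others. Falls among the targets included Klf4, Gbx2 (-1.12), Bcl3 (-0.73) and Junb (-0.48), but not every target on the list is named here. Tfcp2l1 and Stat3, both on this list, were not called. Of 20 genes 7 rose and 10 fell, and 4 rose without replicate 3 of day 5.

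Of 31 genes of DNA methylation and chromatin, 14 fell and 6 rose, with a median of -0.16. The de novo methyltransferases Dnmt3a (-1.09) and Dnmt3b (-0.44) and the demethylases Tet1 (-1.12) and Tet2 (-0.96) fell, and the maintenance enzyme Dnmt1 was at 0.17, called as deposited and not with centring. In Polycomb complex 2, the catalytic subunit Ezh2 fell by 0.35 and its relative Ezh1 rose by 0.59. Macroh2a1, a histone variant of silent chromatin, rose by 0.50 and the remodelling subunits Smarcd3 (-0.82) and Smarcd1 (-0.61) fell. In the retinoid and Hox list 4 of 19 rose and 3 fell (4 and 6 with centring). That is 36.8% called, below the 42.5% of all clusters, so the list as a whole did not stand out. Within it the homeobox genes Meis1 and Meis2 stood apart. Meis1 was at 6.49, 6.89 and 6.57 at day 0 and at 8.24, 8.24 and 8.37 at day 5, a rise of 1.63, and Meis2 rose by 1.84, while no Hox gene of the list was called and the receptors Rarg (-0.56) and Rara (-0.43) fell.

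The group means of days 1 and 3 show that genes with like changes at day 5 took different courses. These days share the day 0 arrays with the main comparison, so levels only are given. Nanog itself was at 11.03, 10.24, 10.51 and 9.85 at days 0, 1, 3 and 5, higher at day 3 than at day 1. Krt7 went from 7.72 at day 0 to 7.93, 9.62 and 11.10 at days 1, 3 and 5. Slc40a1 was already at 9.47 at day 1, and its mean of 10.88 at day 3 lay above that of 10.40 at day 5. Khdc3 fell in order, with 9.85, 8.92, 7.68 and 7.30, and Slc7a3 stood at 11.06 at day 1 and 10.38 at day 3 before reaching 8.65. Otx2 was at 9.76 at day 1 and 10.15 at day 3, above its day 5 mean of 9.46. Dnmt3a, which was lower at day 5 than at day 0, was at 10.29 at day 1 against 9.69 at day 0. Trh was likewise at 11.81 at day 1 and 11.46 at day 3, not below its day 0 mean of 11.40, and at 9.33 at day 5.

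**Figure D4:**
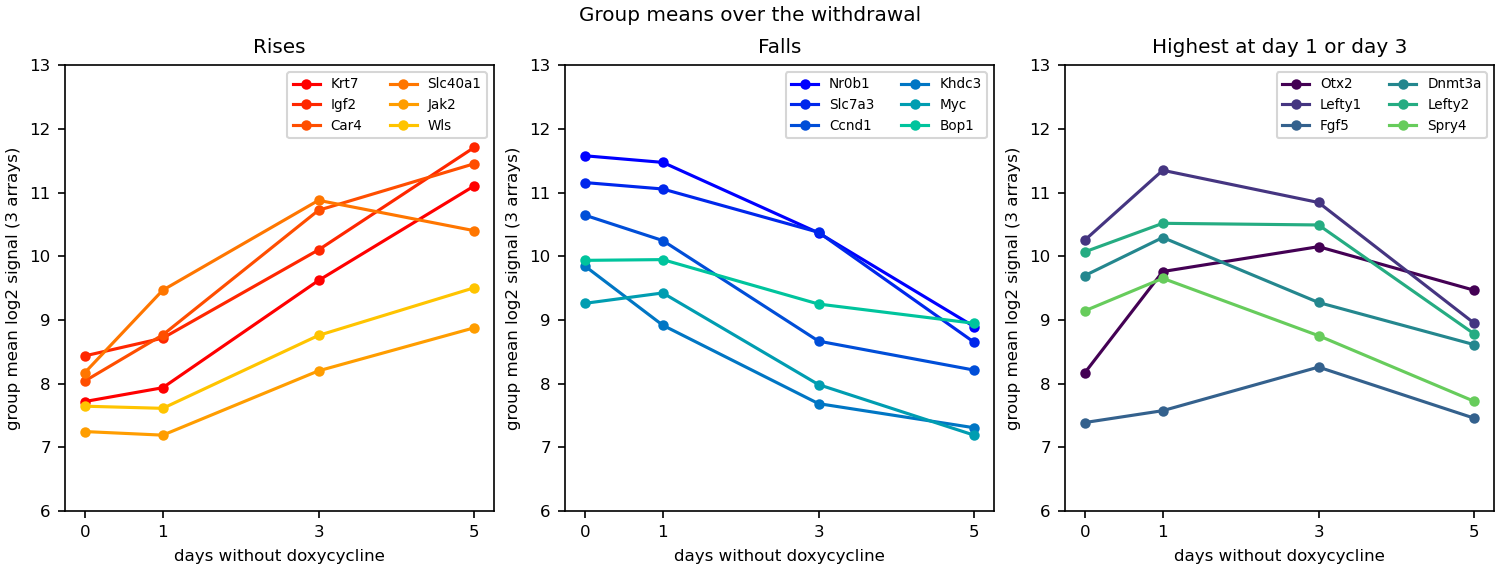
Group mean log2 signal (3 arrays each) at days 0, 1, 3 and 5 for 6 genes that rose (left), 6 that fell (middle) and 6 more whose mean was highest at day 1 or day 3 (right), all chosen after their values were seen. Krt7 climbs from 7.72 to 11.10, and Otx2 reaches 10.15 at day 3 before 9.46 at day 5.

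The 12 h pulse of doxycycline at day 5 was read against its timed control on 6 further arrays, none of them from the day 0 and day 5 groups compared above. These arrays share the fit's estimate of the spread with the main comparison. It raised Nanog by 0.78 ± 0.080 and changed 12.2% of all clusters (called in either direction). Of the 20 largest rises, 7 were lowered by the pulse, none was raised and 13 were not called in limma (9 and 1 at an unadjusted p under 0.05). They were Meiob (-1.76 ± 0.24), Greb1l (-0.68), Vnn1 (-0.52), Copz2 (-0.49), Slc40a1 (-0.44), Septin4 (-0.32) and Pmp22 (-0.27). Of the 20 largest falls, 6 were raised, none was lowered and 14 were not called (7 and 2 at an unadjusted p under 0.05). They were Trh (0.61 ± 0.11), Tubb3 (0.49), Myc (0.44), Slc7a3 (0.43), Ccnd1 (0.43) and Crmp1 (0.40). Krt7 (0.09), Krt18 (0.10), Igf2 (0.17) and Car4 (-0.19) were not called, and neither was Khdc3 (-0.01) nor Gng3 (0.10). Otx2 (-0.65) and Dppa3 (-0.76), which had risen with withdrawal, were lowered.

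**Figure D5:**
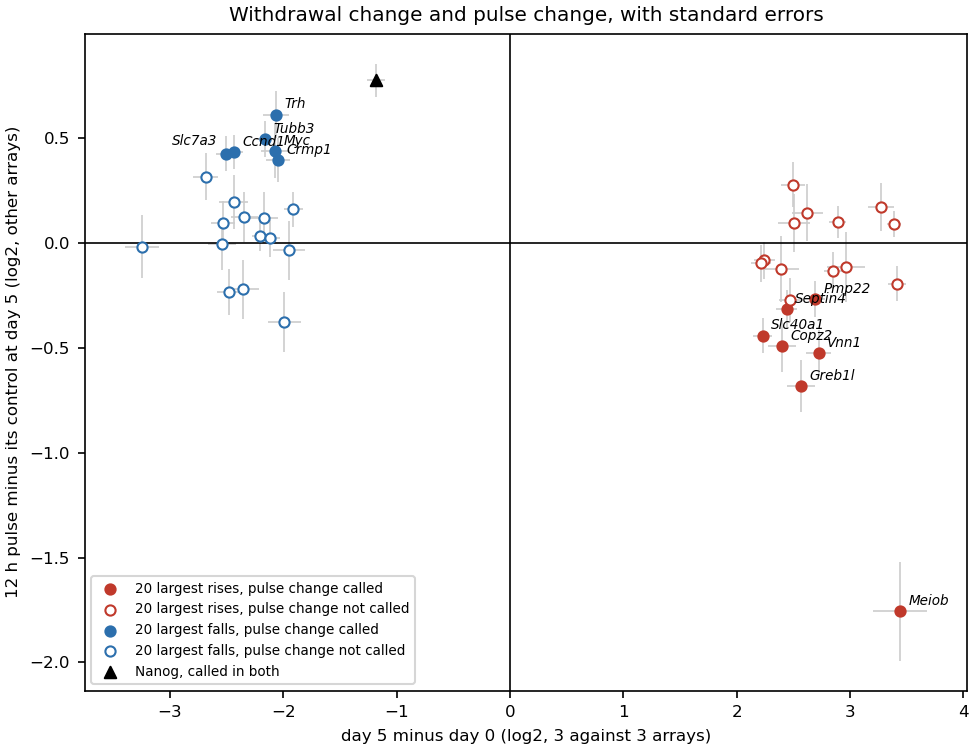
Change from day 0 to day 5 (horizontal axis) against the change with the 12 h pulse at day 5 (vertical axis, other arrays), both in log2 with bars of 1 standard error, for the 20 largest rises, the 20 largest falls and Nanog. Filled points are called in the pulse comparison. The 7 called rises lie below 0 and the 6 called falls above it, and the other 27 genes were not called.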

How the data were processed

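Biotin-labelled total RNA was read on Affymetrix Mouse Gene 1.0 ST arrays. The authors deposited log2 signals per transcript cluster. The submitters' processing notes name RMA and Affymetrix Expression Console. The RMA method corrects background, equalizes array distributions and summarizes probes, which can shrink changes of low signals. Software versions and the annotation release are not given in the sources used here. Arrays have no read depth, and 3 arrays per group limit the precision.

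Clusters were named through the platform annotation: 21780 had 1 symbol, 1605 several (tested but not named) and 5430 none (not tested). Of the tested clusters, 238 repeated another's values. No replicate pair was identical.

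All 30 arrays were fitted in limma 3.58.1 (R 4.3.3) with a mean for each of the 10 groups and without covariates. The contrasts were day 5 against day 0 and the day 5 pulse against its control, with Benjamini-Hochberg adjustment over 23385 clusters. The steps were tested on simulated data. The members, the 34 gene lists and the tests were chosen with earlier results of these data known. Named genes were Nanog, the 20 largest called rises and 20 largest falls with 1 symbol and arrays apart (microRNA, small nucleolar RNA, Usp17l, Gm and Rik names left out), and list members. Where several clusters read a list member, the values are those of the cluster with the highest mean. The 20 rises and falls are given by the cluster that ranked, which for Vwa3b and Adgrl2 was not the brightest. List genes without a named cluster were not analysed here. Promoters were read from RefSeq (GRCm38.p6).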

Additional observations from a re-analysis of the deposited data

How the results depend on the processing

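The 41 named genes (Nanog, the 20 rises and the 20 falls) kept their call and direction in all 612 values from 15 alternatives, with adjusted p up to 8.97e-07 in limma. Apart from Nanog, they were chosen as the largest changes of these same arrays. Kept calls were therefore likely in advance and are no separate support. The alternatives were trend and robust variances, array weights, the 6 arrays alone, 2 rescalings, the array interquartile range as a covariate, dim clusters left out, clusters without a symbol included, the replicate block and each array left out. Of 584 called genes named or on a list, between 530 and 582 kept their call where all were tested, and leaving out dim clusters kept all 538 still tested. Only 2 reversed, Mthfd1 (0.015) and Fth1 (0.0038) with quantile normalization, and the cause was not tested.

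Called clusters numbered 8540 to 9605 without single arrays, 4785 to 5466 higher and 3740 to 4139 lower, and 12250 with array weights. A 2-fold minimum left 829, of which 555 were higher and 274 lower. Centring gave 4440 higher and 6119 lower, and quantile normalization 5269 and 5558. The replicate numbers did not pair the arrays (correlations of deviations -0.0986, -0.0917 and 0.0532 for the same numbers), and the replicate block gave 9853 calls, 5517 higher and 4336 lower. Dim genes such as Meiob are limited by signal near background.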
